A study of Rattus norvegicus with 30 samples.

Results

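Mx1, Mx2, Rsad2, Irf7, Oas1a and Stat2, 6 rat genes of the type I interferon response, were followed across 30 arrays of left ventricle. They were taken as every probe set whose only gene symbol was one of these 6, which gave 8 probe sets of the 8799 on the array and 6 of the 4736 genes named by 1 symbol. The genes were chosen from measured values, with earlier results of the same arrays known, among them their low signals against control hearts. Comparisons of these 6 genes with controls are therefore given below as a description, with no test. All 8 probe sets passed the filter on low signals, which kept 5244 probe sets and 3155 genes.

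Type I interferons bind a receptor on the cell surface, whose kinases phosphorylate Stat2. Stat2 is part of a transcription factor complex, ISGF3, that switches on antiviral genes such as the Mx and Oas families, and the factor Irf7 then raises interferon output further. In the heart the pathway is known mainly from viral myocarditis and from the inflammation that follows infarction.

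The study set ischaemia and 2 kinds of preconditioning beside control hearts, and preconditioning is a mild stimulus that limits the injury of a later ischaemia. The 6 groups held 5 biological replicates each and were labelled ischaemic preconditioning (IPC), anaesthetic preconditioning (APC), ischaemia (ISCH), the trigger of each kind of preconditioning (IPC_TRI and APC_TRI) and control (CTL). IPC and APC were the full protocols, in which a test ischaemia followed the preconditioning, and the trigger groups had no test ischaemia. Every array held total RNA of left ventricle tissue. The labels name no strain, age, sex, anaesthetic, dose, duration or time of sampling, nor whether hearts were perfused outside the body, and this limits what each group can stand for as a model.

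The deposited values are signals on a linear scale, already brought to a trimmed mean of 501 on each array, with medians from 114.6 to 189.2. Of 10 cardiomyocyte markers listed 9 were on the array, and all 9 stood above the filter threshold in every group. Arrays of 1 group correlated with each other at a mean of 0.873 to 0.970. The lowest of these was the array IPC_TRI 5, followed by the other IPC_TRI arrays (0.891 to 0.912) and ISCH 1 (0.920). The main group means and differences of the 6 genes that rest on IPC_TRI 5 are given with and without it. Differences below are differences of mean log2(signal + 16) after quantile normalization, with standard errors (SE) from limma, and negative values mean lower in the group named first. In whole tissue, fewer cells of a type and less RNA per cell cannot be told apart.

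Promoter stretches of 3 of the genes are shown because the 6 genes moved together and ISGF3 and the interferon regulatory factors bind a shared DNA element. The element, the core of the interferon-stimulated response element, was searched as 2 GAAA blocks with any 2 bases between them, on both strands in the 250 bases before each transcript start in RefSeq's rat promoters (build GRCr8). Capitals mark the matches, each stretch has 30 bases, and all are written 5′ to 3′ on the strand of the gene.
Rsad2: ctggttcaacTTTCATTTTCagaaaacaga
Irf7: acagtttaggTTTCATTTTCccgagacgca
Oas1a: ctctcggGAAATGGAAACTGAAAatcttgt
The Rsad2 stretch lies at chr6:48788248-48788277 on the minus strand, 157 to 128 bases before the start that the promoter table uses. That start falls inside the annotated span of the Rsad2 gene. The stretch lies just outside that span, whose upstream end is at 48788245. The Irf7 stretch lies at chr1:205800073-205800102 on the minus strand, 79 to 50 bases before the start that the promoter table uses. All 30 of its bases fall inside the annotated span of the Irf7 gene. The Oas1a stretch lies at chr12:41330418-41330447 on the plus strand, 48 to 19 bases before the start, with 25 of its bases inside the annotated gene and 2 overlapping matches. The element was found in 3 of the 5 promoters of these genes in the table, against 1140 of 33469 promoters, or 3.41%. The Mx1 and Stat2 windows held no match to these letters. A second element, TTCNNNGAA, which reads the same on both strands and which Stat dimers bind, was found in 1 of the 5 promoters, that of Oas1a, against 7.67% of all promoters. The Mx2 promoter was not in the table. A match is a description of letters and not a site. Mx1 and Mx2 lie on the same chromosome with 1 gene between them, Fam3b, in the GRCr8 annotation.

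Every gene showed the same layout of groups. Signals were highest in CTL hearts, intermediate and widely spread in the trigger groups, and lowest in IPC, APC and ISCH hearts. For all 8 probe sets, all 15 arrays of IPC, APC and ISCH lay below all 5 CTL arrays, against 2.04% of the 5244 probe sets. Taken singly, 4.12% of all probe sets lay wholly below CTL in IPC, 4.23% in APC and 5.59% in ISCH hearts. For 4 of the 8, those of Mx1 and Stat2 and both of Rsad2, the same 15 arrays also lay below all 10 trigger arrays, against 0.973% of the 5244. The low levels against CTL were among the values in view when the genes were chosen, so nothing is read from those counts.

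**Figure D1:**
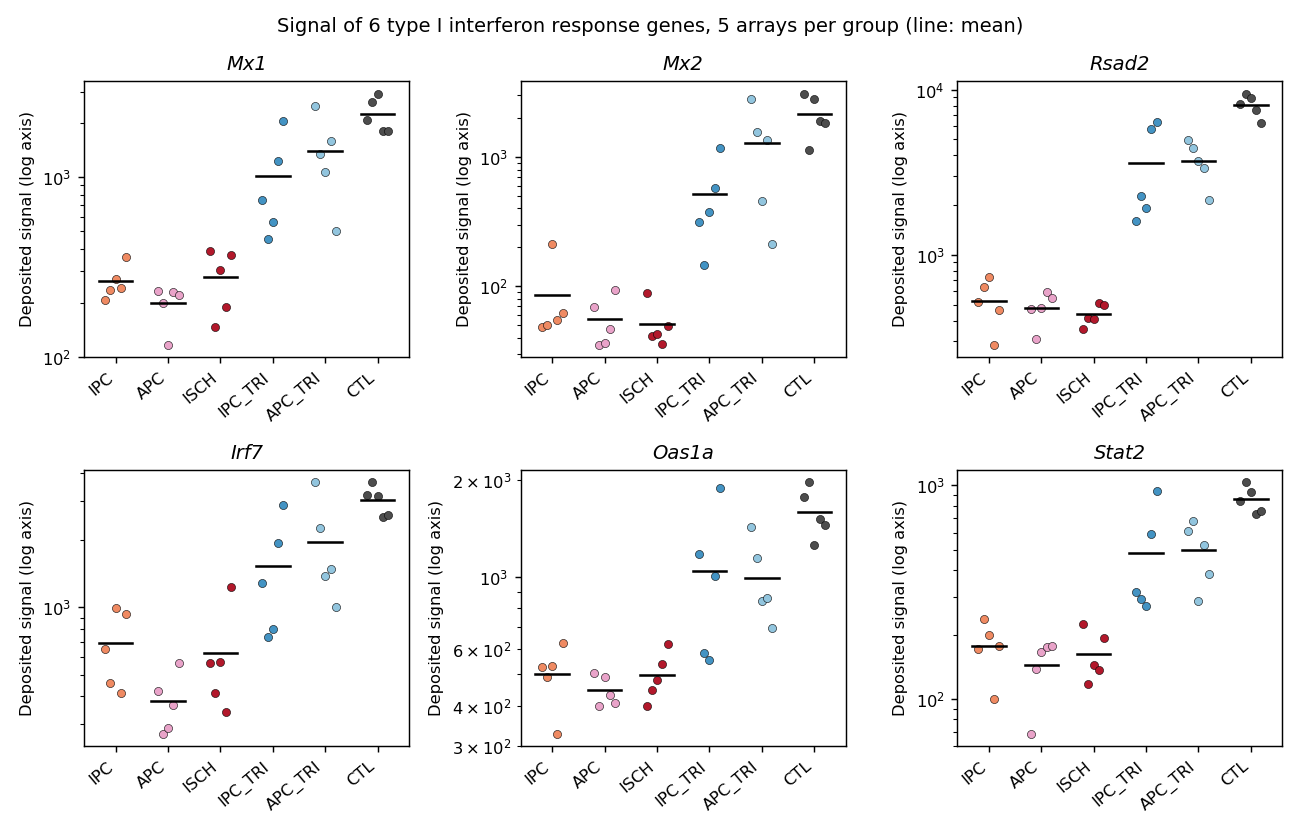
Deposited signal of each gene (log axis) on the 5 arrays of each group, with 1 probe set per gene and a line at the group mean; for Rsad2 and Irf7 it is the g probe set. The IPC, APC and ISCH arrays form a low band, the CTL arrays a high one, and the trigger arrays spread between them, with Rsad2 from 1604 to 6379 on the 10 trigger arrays.

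Among the regulators, Stat2 is the subunit of ISGF3 that is peculiar to the type I and type III interferon pathways. Its signals were 170.4, 236, 199, 99.9 and 176 in IPC hearts, 68.7, 138, 165, 174 and 177 in APC hearts and 223.5, 117, 145, 136 and 194 in ISCH hearts. They were 315, 294.5, 273, 593 and 938 in IPC_TRI hearts, 613, 678, 287, 525 and 382.5 in APC_TRI hearts and 849.6, 1034.5, 937, 737 and 757 in CTL hearts. The IPC, APC and ISCH arrays overlapped each other, and all lay below every trigger array. The APC_TRI arrays lay below every CTL array, whereas IPC_TRI 5, at 938, lay among them. Group means were 20.4%, 16.8% and 18.9% of the CTL mean in IPC, APC and ISCH hearts. They were 55.9% in IPC_TRI hearts and 57.6% in APC_TRI hearts.

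Irf7, the factor that amplifies interferon transcription, had 2 probe sets. On the brighter one (the g probe set) signals were 653, 458, 990.4, 413 and 937 in IPC hearts, 423, 273, 289, 366.5 and 563 in APC hearts and 566, 416, 571, 340.1 and 1229.9 in ISCH hearts. They were 1285, 736, 798, 1937 and 2874 in IPC_TRI hearts, 3621, 2252, 1385, 1488 and 998.5 in APC_TRI hearts and 3176.5, 3615, 3148, 2533.5 and 2597 in CTL hearts. Here the bands were less separate, because ISCH 5, at 1230, lay above 2 IPC_TRI arrays and 1 APC_TRI array, and IPC 3 and IPC 5 above the same 2 IPC_TRI arrays. The second Irf7 probe set ran from 247 to 378 in IPC hearts, 170.1 to 273 in APC hearts and 191 to 339 in ISCH hearts. It ran from 292 to 765.5 in IPC_TRI hearts, 251 to 1107 in APC_TRI hearts and 765 to 1288 in CTL hearts. Both probe sets put the 6 group means in the same order, and for ISCH minus CTL the difference was -1.76 ± 0.28 on the second and -2.33 ± 0.35 on the first (n = 5 per group).

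Among the effectors, Mx1 encodes a dynamin-like GTPase that blocks influenza-type viruses. Its signals were 207, 236, 272, 241 and 357.5 in IPC hearts, 232.5, 199, 116.5, 228 and 221 in APC hearts and 386, 147, 305, 189 and 371 in ISCH hearts. They were 748.5, 452, 563, 1239 and 2059.7 in IPC_TRI hearts, 2503, 1355, 1068, 1591.5 and 500.2 in APC_TRI hearts and 2076, 2634, 2923, 1809 and 1809 in CTL hearts. No array of IPC, APC or ISCH exceeded 386, and the lowest trigger array stood at 452. IPC_TRI 5 and APC_TRI 1 reached the CTL range, while the other 8 trigger arrays lay below all CTL arrays.

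Mx2, whose protein works in the cytoplasm in the rat, is a close relative of Mx1. RefSeq's gene table gives it the synonym Mx3, and signals of the near-identical Mx genes may not be fully separate. Its signals were 48.7, 49.7, 210.5, 54.4 and 61.8 in IPC hearts, 69, 35.1, 36, 46.7 and 92.9 in APC hearts and 88.3, 40.8, 42.8, 35.6 and 48.9 in ISCH hearts. They were 313, 145, 372, 580.5 and 1172 in IPC_TRI hearts, 2808, 1552, 457, 1349 and 210.4 in APC_TRI hearts and 3097, 1132, 2835, 1903 and 1844 in CTL hearts. IPC 3 stood far above the other 4 IPC arrays. The APC_TRI arrays covered most of the distance between the low band and the CTL range. The mean log2 signal of Mx2 was below the filter threshold of 6.58 in IPC, APC and ISCH hearts, so its differences depend on the constant added before the logarithm. For ISCH minus CTL the difference was -4.98 with 16 added, -5.38 with 1 and -4.20 with 64.

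Rsad2 encodes viperin, a radical SAM enzyme that makes an antiviral nucleotide, and it had 2 probe sets. On the g probe set signals were 517, 636, 730.4, 285 and 464.5 in IPC hearts, 468, 311, 478, 596 and 545 in APC hearts and 354, 415.5, 408, 508 and 495 in ISCH hearts. They were 1604, 2265, 1915, 5799 and 6379 in IPC_TRI hearts, 4967, 4406, 3680.3, 3329.6 and 2154 in APC_TRI hearts and 8135, 9454, 8845, 7558 and 6316.5 in CTL hearts. On this probe set no IPC, APC or ISCH array exceeded 730.4 and no trigger array was below 1604. The IPC_TRI arrays fell into 3 between 1604 and 2265 and 2 at 5799 and 6379, the last just inside the CTL range. The second probe set showed the same order of groups, and its ranges were 236 to 527 in IPC hearts, 131 to 498 in APC hearts and 189 to 344 in ISCH hearts. They were 568 to 3763 in IPC_TRI hearts, 1098 to 4465 in APC_TRI hearts and 3483 to 8620.1 in CTL hearts.

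Oas1a encodes a 2′-5′ oligoadenylate synthetase, which senses double-stranded RNA and activates RNase L. Its signals were 525, 490, 530.3, 328 and 624 in IPC hearts, 505, 399.7, 489.6, 430.5 and 408 in APC hearts and 399.8, 448, 481, 539 and 619 in ISCH hearts. They were 1179, 580.3, 555, 1010.3 and 1877 in IPC_TRI hearts, 1427, 1144, 839.7, 858.5 and 693 in APC_TRI hearts and 1761, 1962, 1258, 1506 and 1450.2 in CTL hearts. Oas1a had the smallest differences of the 6 genes in ISCH minus CTL, and its probe set may also read other members of the rat Oas1 family. The APC_TRI arrays lay above every APC array, whereas 2 IPC_TRI arrays, at 580.3 and 555, lay within the range of IPC hearts.

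Differences from CTL follow as a description, and the comparisons with CTL share its 5 arrays. In ISCH hearts the difference was -4.98 ± 0.51 for Mx2, -4.21 ± 0.30 for Rsad2 and -2.97 ± 0.35 for Mx1 (SE, n = 5 per group). It was -2.33 ± 0.35 for Irf7, -2.32 ± 0.30 for Stat2 and -1.61 ± 0.24 for Oas1a. In linear terms the mean signal of ISCH hearts was 2.37% of the CTL mean for Mx2 and 31.3% for Oas1a, the ends of the range.

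With 64 added Mx2 lost its place as the largest in IPC hearts, at -3.80 against -3.84 for the g probe set of Rsad2 and -3.90 for the second, and in ISCH hearts at -4.20 against -4.22 for the second Rsad2 probe set. With 16 added the differences from CTL in IPC hearts ran from -4.39 ± 0.51 for Mx2 to -1.58 ± 0.24 for Oas1a, or -1.52 ± 0.28 on the second Irf7 probe set. In APC hearts they ran from -4.77 ± 0.51 for Mx2 to -1.72 ± 0.24 for Oas1a. The median over the 8 probe sets was -2.53 in IPC, -3.10 in APC and -2.65 in ISCH hearts, where the medians over all 5244 probe sets were 0.0061, 0.017 and -0.013. The bacterial spike controls, which check hybridisation, also differed, with a mean log2 signal of 10.9 ± 0.43 in IPC, 10.8 ± 0.24 in APC, 12.0 ± 0.61 in ISCH and 10.8 ± 0.69 in CTL hearts (SD, n = 5). The part of that difference in the ISCH values was not tested beyond a fit with spike signal as a covariate, in which the median over the 8 probe sets in ISCH minus CTL was -2.64. Single probe sets moved more in that fit, to -1.90 for Irf7 (g probe set), -1.34 for Oas1a and -4.65 for Mx2. Stat2 alone grew, to -2.36. Over all 5244 probe sets 157 were called in place of 460.

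The trigger groups lay below CTL on average, with overlap. In IPC_TRI hearts the differences from CTL were -2.25 ± 0.51 for Mx2, -1.35 ± 0.30 for Rsad2 and -1.23 ± 0.35 for Mx1. They were -1.06 ± 0.35 for Irf7, -0.95 ± 0.30 for Stat2 and -0.64 ± 0.24 for Oas1a. All 8 probe sets overlapped between IPC_TRI and CTL arrays, where 5.23% of the 5244 lay wholly below. That overlap rested on IPC_TRI 5. Without it the highest IPC_TRI signal lay below the lowest CTL signal for all 8 probe sets. The values were 5799 against 6316.5 for the g probe set of Rsad2 and 1179 against 1258 for Oas1a. The 5.23% is for all 5 arrays. In these comparisons the sum of the 8 fibroblast markers was 58094 to 96668 in IPC_TRI and 57900.2 to 65029 in APC_TRI hearts, against 45128 to 53725 in CTL hearts. The 3′ to 5′ ratio of beta-actin signal was 0.75 ± 0.19 in IPC_TRI and 0.79 ± 0.15 in APC_TRI hearts, against 1.07 ± 0.17 in CTL hearts (SD, n = 5). Their part was not tested. Without IPC_TRI 5 the differences were larger, at -2.65 for Mx2, -1.66 for Rsad2, -1.57 for Mx1, -1.36 for Irf7, -1.23 for Stat2 and -0.91 for Oas1a.

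In APC_TRI hearts the differences from CTL were -1.12 ± 0.51 for Mx2, -1.19 ± 0.30 for Rsad2 and -0.78 ± 0.35 for Mx1. They were -0.71 ± 0.35 for Irf7, -0.81 ± 0.30 for Stat2 and -0.67 ± 0.24 for Oas1a. Here 2 of the 8 probe sets, those of Stat2 and the g probe set of Rsad2, lay below CTL on every array, against 7.04% of the 5244. Without APC_TRI 5 the difference was -0.61 for Mx2, -0.45 for Mx1 and -0.31 on the second Irf7 probe set, which stood at -0.62 with all 5 arrays.

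By mean log2 signal CTL came first for 6 of 6 genes. APC_TRI came second for 5 of 6 and IPC_TRI for Oas1a, and the other trigger came next. Without IPC_TRI 5 the order of the triggers for Oas1a reversed, at -0.24 for IPC_TRI minus APC_TRI in place of 0.031. After the triggers came IPC for 5 of 6 genes and ISCH for Mx1. The lowest place fell to APC for 4 of 6 and to ISCH for Mx2 and Rsad2. Neighbours in this order overlapped except at 2 places. The second and the first place did not overlap for Stat2 and the g probe set of Rsad2, and the lower trigger and the group after it did not overlap for Mx1, Rsad2, Oas1a and Stat2.

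**Figure D2:**
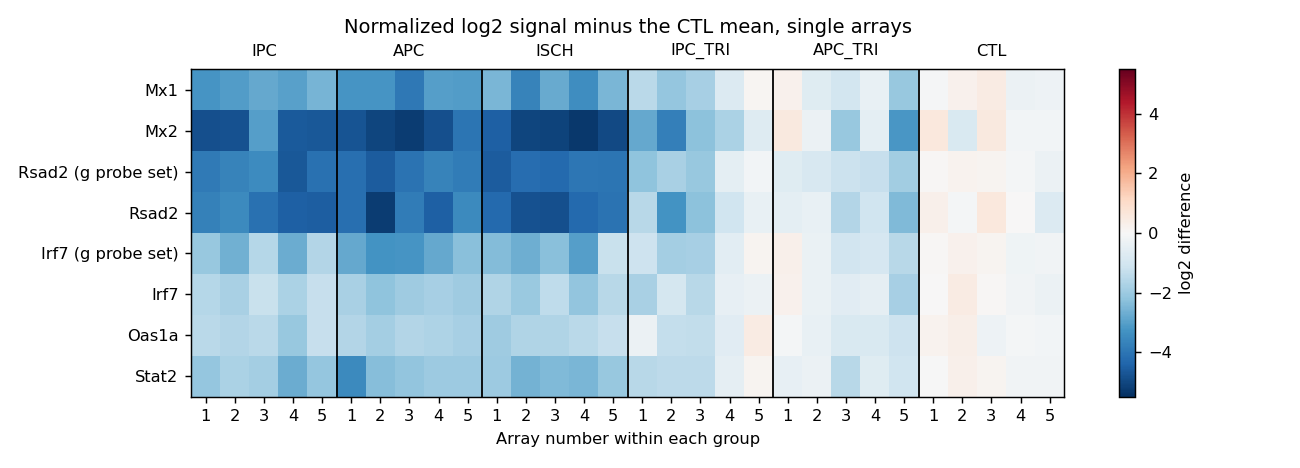
Normalized log2 signal of each of the 8 probe sets on each of the 30 arrays, minus that probe set's CTL mean (colour scale in log2 units, blue lower and red higher). The 15 arrays of IPC, APC and ISCH are blue in every row, and the trigger arrays grade from pale to blue together over the rows, with IPC_TRI 5 and APC_TRI 1 the palest of their groups.

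The trigger arrays varied together over the 6 genes. The mean over the genes of log2 signal minus the CTL mean was -1.59, -2.05, -1.81, -0.78 and -0.0022 on the 5 IPC_TRI arrays. On the 5 APC_TRI arrays it was -0.032, -0.49, -1.28, -0.78 and -1.82. By comparison it ran from -3.31 to -2.36 in IPC, from -3.39 to -2.84 in APC, from -3.31 to -2.68 in ISCH and from -0.22 to 0.19 in CTL hearts. The SD over arrays was 0.84 in IPC_TRI and 0.70 in APC_TRI hearts, against 0.19 in CTL hearts.

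Single trigger arrays thus ranged from the CTL level to just above the highest IPC array. IPC_TRI 5 was highest of its group for 8 of 8 probe sets, where it was highest for 28.0% of all 5244. APC_TRI 1 was highest for 6 of 8, against 22.8% of all, and APC_TRI 5 lowest for 7 of 8, against 23.2% of all. The 8 probe sets share their arrays and are not 8 separate observations.

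IPC_TRI 5 also stood apart in other measures. Its median signal was the highest of the 30 arrays, at 189.2, and its ratio of 3′ to 5′ beta-actin signal the lowest, at 0.505. Its summed signal over 12 lymphocyte markers was 2992, against 1223 to 1603 on the other IPC_TRI arrays. Its summed signal over 8 macrophage and myeloid markers was 2160, against 1455 to 1954. Their part in its interferon gene signals was not tested. Without that array the mean Rsad2 signal of IPC_TRI hearts was 2896 ± 1954 (SD, n = 4) in place of 3593 ± 2300.3 (n = 5). For Mx1 it was 751 ± 348 in place of 1013 ± 658 and for Mx2 352 ± 180 in place of 516 ± 398. For Irf7 it was 1189 ± 556 in place of 1526 ± 894. For Stat2 it was 369 ± 150 in place of 483 ± 286 and for Oas1a 831 ± 312 in place of 1040 ± 540.

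Each full preconditioning protocol was then compared with its own trigger, a comparison without CTL arrays. Only the full protocols held the test ischaemia, and its part in the differences was not tested. The IPC and APC arrays had also been part of the comparisons with CTL that were in view when the genes were chosen, so these tests are not fully separate from the choice. Adjusted p-values are from limma with the Benjamini-Hochberg method over all 5244 probe sets. The SE rest on 1 spread per probe set shared by all 6 groups, and the trigger arrays were more widely spread. For Mx2 the SD of log2 signal was 1.49 in APC_TRI and 0.46 in APC hearts. The SE and p-values of comparisons with the triggers may therefore be too small. Calls are those with an adjusted p under 0.05.

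All 6 genes fell in IPC hearts against IPC_TRI hearts, Irf7 on 1 of its 2 probe sets. Of the 8 probe sets 7 were called lower, against 9.46% of all probe sets. Rsad2 averaged 527 ± 170.1 in IPC and 3593 ± 2300.3 in IPC_TRI hearts (SD, n = 5 each), a difference of -2.60 ± 0.30 (adjusted p = 2.03e-07, limma). Mx2 averaged 85 ± 70.3 in IPC and 516 ± 398 in IPC_TRI hearts, a difference of -2.14 ± 0.51 (adjusted p = 0.00323). Mx1 averaged 263 ± 57.9 in IPC and 1013 ± 658 in IPC_TRI hearts, a difference of -1.70 ± 0.35 (adjusted p = 8.36e-04).

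The regulators and Oas1a differed by less. The difference was -1.17 ± 0.30 for Stat2 (adjusted p = 0.00552), -1.07 ± 0.35 for the g probe set of Irf7 (adjusted p = 0.0272) and -0.95 ± 0.24 for Oas1a (adjusted p = 0.00562), all from limma. The probe set not called was the second of Irf7, at -0.50 (95% interval -1.07 to 0.064, adjusted p = 0.194). For 4 of the 8 probe sets (Mx1, both of Rsad2, Stat2) every IPC array lay below every IPC_TRI array, against 5.34% of all. Without IPC_TRI 5 the Irf7 difference was -0.77 and no longer called (adjusted p = 0.119). The others stayed called at -2.31 for Rsad2 (adjusted p = 6.65e-07), -1.76 for Mx2 (adjusted p = 0.0171), -1.38 for Mx1 (adjusted p = 0.00435), -0.89 for Stat2 (adjusted p = 0.0274) and -0.68 for Oas1a (adjusted p = 0.0272).

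All 6 genes also fell in APC hearts against APC_TRI hearts. All 8 probe sets were called lower, against 7.88% of all probe sets, and for 7 of the 8 every APC array lay below every APC_TRI array, against 8.2% of all. The exception was the second Irf7 probe set. Mx2 averaged 55.9 ± 24.8 in APC and 1275 ± 1029 in APC_TRI hearts, a difference of -3.64 ± 0.51 (adjusted p = 5.28e-06, limma). Rsad2 averaged 479.6 ± 108 in APC and 3707 ± 1076 in APC_TRI hearts, a difference of -2.87 ± 0.30 (adjusted p = 3.11e-08). Mx1 averaged 199.5 ± 48.1 in APC and 1403.5 ± 738 in APC_TRI hearts, a difference of -2.52 ± 0.35 (adjusted p = 4.35e-06).

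Irf7 averaged 383 ± 117 in APC and 1949 ± 1039.6 in APC_TRI hearts, a difference of -2.19 ± 0.35 (adjusted p = 4.01e-05, limma). The difference was -1.33 ± 0.28 on its second probe set (adjusted p = 9.62e-04), -1.59 ± 0.30 for Stat2 (adjusted p = 3.20e-04) and -1.05 ± 0.24 for Oas1a (adjusted p = 0.00268).

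Sums of cell type markers and measures of the RNA also differed in these 2 comparisons, some of them without overlap. The summed signal of 8 macrophage and myeloid markers, of 14 listed, was 962 to 1445 in IPC and 1455 to 2160 in IPC_TRI hearts, and 905 to 1444 in APC and 1550 to 1922 in APC_TRI hearts, with no overlap. Of these 8 markers 5 were below the filter threshold in IPC and in APC hearts and 4 in each trigger group. Of the 3 tested 1, Cd14, fell in each comparison. The median log2 difference of these 3 was 0.32 in IPC and -0.15 in APC hearts against their triggers, so the fit differed from the sum. The sum was 1122 to 1835 in ISCH and 1207 to 1745 in CTL hearts, which overlapped. The sum of 12 of 14 lymphocyte markers overlapped in each pair, at 925 to 1264 in IPC and 1223 to 2992 in IPC_TRI hearts, and 908 to 1673 in APC and 1221 to 1685 in APC_TRI hearts. The sum of 9 of 10 cardiomyocyte markers was 192339 to 285328 in IPC and 285376 to 415846 in IPC_TRI hearts, and 170548 to 252215 in APC and 261564 to 320961 in APC_TRI hearts, with no overlap. That of the 8 fibroblast markers was 48268 to 95064 in IPC and 58094 to 96668 in IPC_TRI hearts, which overlapped, and 38080.1 to 53738 in APC and 57900.2 to 65029 in APC_TRI hearts, which did not. That of 9 of 12 endothelial markers was 3245 to 4249 in IPC and 4002 to 5020 in IPC_TRI hearts, and 2969 to 3775 in APC and 3560 to 5861 in APC_TRI hearts. Gene by gene the fit differed from the sums. Of the 9 cardiomyocyte markers 1 rose and 0 fell in each comparison, with median log2 differences of -0.016 and -0.033. Of the 8 fibroblast markers 1 rose and 1 fell in each, with medians of 0.41 and 0.14. Of 8 endothelial markers tested 0 rose and 1 fell in IPC, and 2 rose and 2 fell in APC hearts. Of all genes 10.6% and 8.34% fell. The sum of 3 of 4 atrial markers overlapped in each pair. It was 1064 to 1846 in IPC and 1372 to 3798 in IPC_TRI hearts. It was 999 to 2465 in APC and 1953 to 12879 in APC_TRI hearts. The 12879 was APC_TRI 3, and the next highest APC_TRI array stood at 2986. Of the 3 atrial markers 0 fell in IPC and 1 in APC hearts. Their median log2 differences were -0.73 and -0.98.

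The lymphocyte sum was 1134 to 1559 in ISCH and 1054 to 1248 in CTL hearts, and the endothelial sum 3384 to 4627 in ISCH and 3971 to 4971 in CTL hearts. The 8 fibroblast markers summed to 74092 to 95278 in ISCH and 45128 to 53725 in CTL hearts, and 5 of the 8 rose, where 3.39% of all genes rose. The beta-actin 3′ to 5′ ratio, a measure of RNA integrity, was 1.28 ± 0.20 in IPC and 1.04 ± 0.19 in APC hearts, against 0.75 ± 0.19 in IPC_TRI and 0.79 ± 0.15 in APC_TRI hearts (SD, n = 5). The part of these cells and of RNA integrity in the interferon gene signals was not tested.

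**Figure D3:**
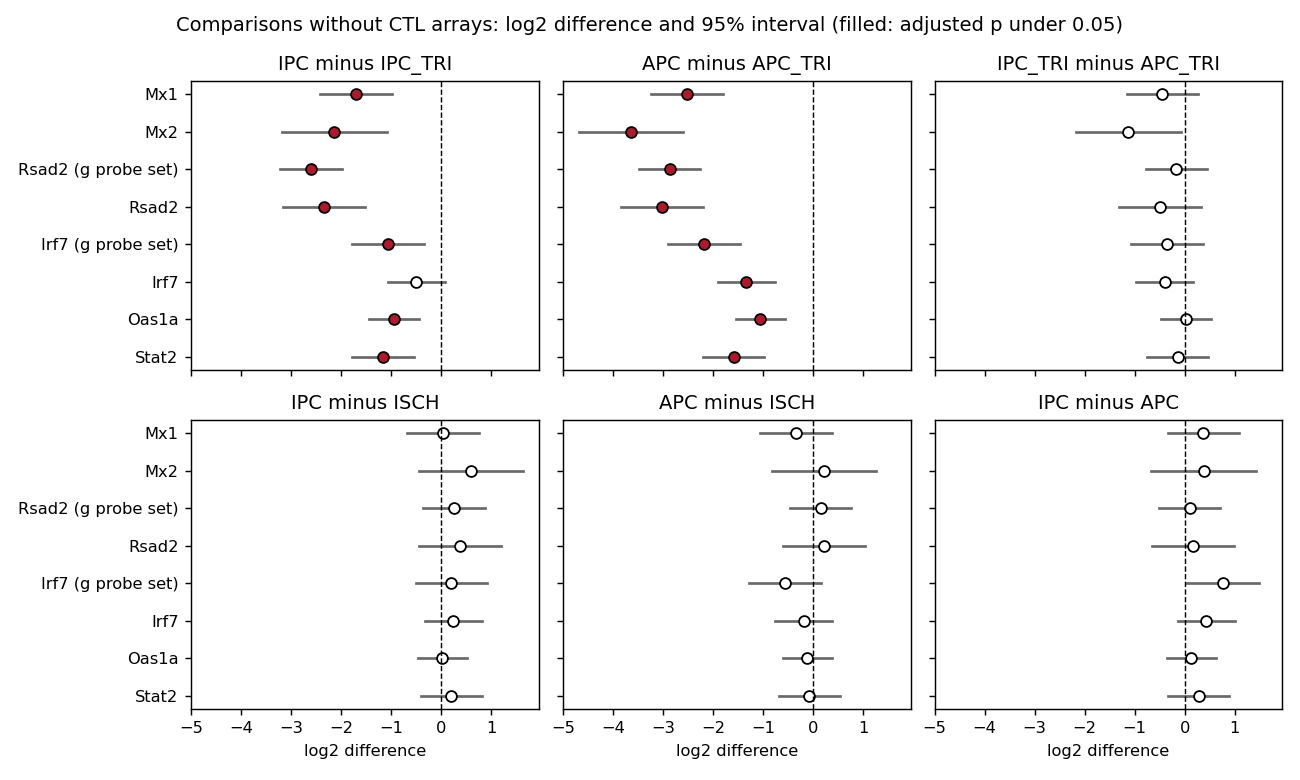
Difference of mean log2 signal for each of the 8 probe sets in the 6 comparisons without CTL arrays, with 95% intervals from limma and filled points at an adjusted p under 0.05. Filled points stand only in the comparisons of IPC and APC with their triggers, 7 and 8 of 8.

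Whether the gap between protocol and trigger differed between the kinds of preconditioning was tested as the difference of the 2 differences. None of the 8 probe sets was called by limma (0 of 8), where 0.0953% of all were, and 3 had an unadjusted p under 0.05. These were Mx2, at 1.50 (95% interval 0.027 to 2.98, adjusted p = 0.58), and both probe sets of Irf7, at 1.12 (0.10 to 2.13, adjusted p = 0.542) and 0.83 (0.031 to 1.63, adjusted p = 0.572). Positive values mean a smaller fall in IPC hearts against their trigger. For Rsad2, Mx1, Stat2 and Oas1a the intervals were -0.60 to 1.13, -0.19 to 1.83, -0.45 to 1.28 and -0.60 to 0.81, around 0.26, 0.82, 0.42 and 0.10. Without IPC_TRI 5 these 4 values were 0.57, 1.16, 0.70 and 0.37, those of Mx2 and the g probe set of Irf7 1.90 and 1.42, and that of the second Irf7 probe set 1.01. Again 0 of 8 were called by limma, the lowest adjusted p being 0.305.

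The 2 triggers were compared directly, and 0 of 8 probe sets were called (limma), against 0.439% of all. The largest difference was that of Mx2, -1.13 for IPC_TRI minus APC_TRI (95% interval -2.17 to -0.084, adjusted p = 0.294), and it alone had an unadjusted p under 0.05. The g probe set of Rsad2 differed by -0.17 (-0.78 to 0.45), Mx1 by -0.45 (-1.16 to 0.27) and Irf7 by -0.35 (-1.07 to 0.37). Stat2 differed by -0.14 (-0.75 to 0.47) and Oas1a by 0.031 (-0.47 to 0.53). Without IPC_TRI 5 the Mx2 difference was -1.52 (adjusted p = 0.149, limma) and that of Oas1a -0.24 (adjusted p = 0.655). Rsad2 was then at -0.47, Mx1 at -0.78, Irf7 at -0.65 and Stat2 at -0.42, and again 0 of 8 were called.

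Preconditioned hearts were next set against ISCH hearts. In IPC minus ISCH 0 of 8 probe sets were called (limma), 0 had an unadjusted p under 0.05, and 0.172% of all probe sets were called. Differences ran from 0.023 for Oas1a (95% interval -0.47 to 0.52) to 0.59 for Mx2 (-0.45 to 1.64). With single arrays left out the Mx2 value ran from 0.26 to 0.72. The mean log2 signal of Mx2 was below the filter threshold in IPC, APC and ISCH hearts. Comparisons among these groups therefore cannot decide whether Mx2 differed. Rsad2 differed by 0.25 (-0.36 to 0.87), Stat2 by 0.20 (-0.41 to 0.81), Irf7 by 0.20 (-0.51 to 0.92) and Mx1 by 0.035 (-0.68 to 0.75). In APC minus ISCH 0 of 8 were likewise called (limma), 0 had an unadjusted p under 0.05, and 0.267% of all were called. There the differences ran from -0.57 for Irf7 (-1.28 to 0.15) to 0.22 for the second Rsad2 probe set (-0.60 to 1.04), with -0.34 for Mx1 (-1.05 to 0.38) and -0.078 for Stat2 (-0.69 to 0.53).

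Between IPC and APC hearts 0 of 8 probe sets were called (limma), as were 0% of all 5244. The g probe set of Irf7 was the 1 with an unadjusted p under 0.05, at 0.77 for IPC minus APC (95% interval 0.052 to 1.49, adjusted p = 1.00). The other 7 probe sets differed by 0.10 to 0.43.

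Other genes of the pathway were taken from lists drawn up with earlier results of these arrays known, and a list gene was called by the same fit. The counts and p-values of list genes are therefore not separate from that choice. Those against CTL are given as a description, and nothing is read from them. In ISCH minus CTL 4.91% of all 3155 genes tested were called lower, which is the share to set beside the counts of each list. Of the ligands and receptors 4 of 11 were on the array and 2 passed the filter. Ifngr1, a chain of the receptor for interferon gamma, fell in ISCH against CTL hearts by 1.29 ± 0.23 on the log2 scale, with mean signals of 244 in ISCH and 604.5 in CTL hearts (adjusted p = 2.72e-04, limma). It also fell against the triggers in IPC (-0.69) and APC hearts (-0.65). Ifnar1, a chain of the type I receptor, stood at 113 in ISCH and 101.5 in CTL hearts, a difference of 0.017 ± 0.28 (adjusted p = 0.981). Ifnb1, the interferon beta gene, was below the filter and not tested, with a median signal of 51.5 over the 30 arrays and its highest, 465, on IPC_TRI 5.

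Of the kinases and Stats 6 passed the filter and 1, Jak2, fell in ISCH hearts (-1.26 ± 0.25, adjusted p = 8.24e-04, limma). Stat6 fell in APC against APC_TRI hearts (-0.90, adjusted p = 0.00511). Of the 3 other interferon regulatory factors tested, Irf1 and Irf8 fell in ISCH hearts, and Irf1 was the larger at -2.46 ± 0.31 (adjusted p = 1.20e-06) against -0.89 ± 0.27 for Irf8 (adjusted p = 0.0329). Irf1, which answers to interferon gamma as well as to type I interferon, also fell against the triggers, with differences of -1.25 in IPC and -2.05 in APC hearts.

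Of the 4 sensors and adaptors tested 3 fell in ISCH against CTL hearts. They were Nfkbia, the inhibitor of NF-kB (-1.01), Cd14, a co-receptor for bacterial lipopolysaccharide (-0.88), and Nfkb1, an NF-kB subunit (-0.85), with adjusted p of 6.35e-06, 6.21e-04 and 1.83e-04 (limma). All 3 fell against both triggers too, with differences of -1.52, -1.25 and -0.97 in IPC and of -1.88, -1.16 and -0.86 in APC hearts. In the triggers Nfkbia rose against CTL in both IPC_TRI (0.61, adjusted p = 0.00495) and APC_TRI hearts (0.69, adjusted p = 0.00246), whereas the 6 interferon response genes had lower means there.

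Of the 7 brakes tested the smallest p in ISCH minus CTL (limma) were those of Cish, an inhibitor of cytokine signalling (-0.66, adjusted p = 0.253) and the phosphatase gene Ptpn2 (-0.51, adjusted p = 0.293). The brakes moved in both directions against the triggers. Socs2, a suppressor of cytokine signalling, rose in IPC (1.37, adjusted p = 0.0214) and APC hearts (1.21, adjusted p = 0.0495), and Socs3 rose in IPC hearts (1.18, adjusted p = 0.00994). The phosphatase gene Ptpn1 fell in IPC (-0.55, adjusted p = 0.00772) and APC hearts (-0.59, adjusted p = 0.00527).

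Of 68 other interferon-induced genes listed 20 were on the array and 19 were tested. In ISCH minus CTL 12 of the 19 fell and 0 rose, against the 4.91% of all genes that fell. The list's median difference was -1.13, against -0.010 over all genes. The 4 largest were Cxcl10, a T cell attractant (-4.87 ± 0.31, adjusted p = 1.73e-12), Gbp2, a guanylate-binding GTPase (-3.50 ± 0.26, adjusted p = 5.07e-11), Irgm2, an immunity-related GTPase (-2.83 ± 0.25, adjusted p = 1.62e-09), and Gch1, the first enzyme of tetrahydrobiopterin synthesis (-2.46 ± 0.28, adjusted p = 1.78e-07), all by limma.

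Against the triggers 8 of the 19 fell in IPC hearts and 12 in APC hearts, where 10.6% and 8.34% of all genes fell. The medians were -0.42 in IPC and -1.19 in APC hearts. In IPC and in APC hearts against their triggers Cxcl10 differed by -3.01 and -3.45, Gbp2 by -1.54 and -1.95, Irgm2 by -1.09 and -1.73, and Psmb8, a subunit of the immunoproteasome, by -1.45 and -1.25. Ifitm3, a membrane protein that blocks viral entry, differed by -1.01 and -1.34, the inflammatory caspase Casp1 by -1.09 and -1.19, the peptide transporter Tap2 by -0.70 and -0.84, and the galectin gene Lgals9 by -0.84 and -1.39, all called in both. Gch1 (-1.22), Eif2ak2, the kinase PKR (-1.26), Tap1 (-1.30) and Lgals3bp (-1.05) were called in APC hearts and not in IPC hearts. The test of the difference of differences called none of these 4, with adjusted p of 0.542, 0.533, 0.617 and 0.578 (limma). In the triggers against CTL 9 of the 19 fell in IPC_TRI and 4 in APC_TRI hearts, where 8.75% and 4.28% of all genes fell. Without IPC_TRI 5, a setting added after seeing the data, 7 of the 19 fell in IPC against IPC_TRI hearts and 8 in IPC_TRI against CTL hearts. The calls of Lgals9 (-0.57, adjusted p = 0.186) and of Socs2 (0.76, adjusted p = 0.0969) in IPC hearts were then lost (limma), and that of Stat6 was gained.

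The 8 genes with a profile over the 6 groups most like the mean of the 6 interferon response genes were Gbp2, Cd40, Irgm2, Irf1, Il1a, Pfkfb3, Icam1 and Vcam1. The measure was the root mean square distance between group means of log2 signal, each gene centred on its own mean, over 6 groups. It was 0.185 for Gbp2, 0.238 for the receptor gene Cd40, 0.258 for Irgm2, 0.306 for Irf1 and 0.309 for the cytokine gene Il1a. It was 0.349 for the glycolytic regulator Pfkfb3, 0.415 for Icam1 and 0.462 for Vcam1, both adhesion molecules. The 6 genes themselves lay between 0.0817 (Mx1) and 0.709 (Mx2) from their own mean.

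**Figure D4:**
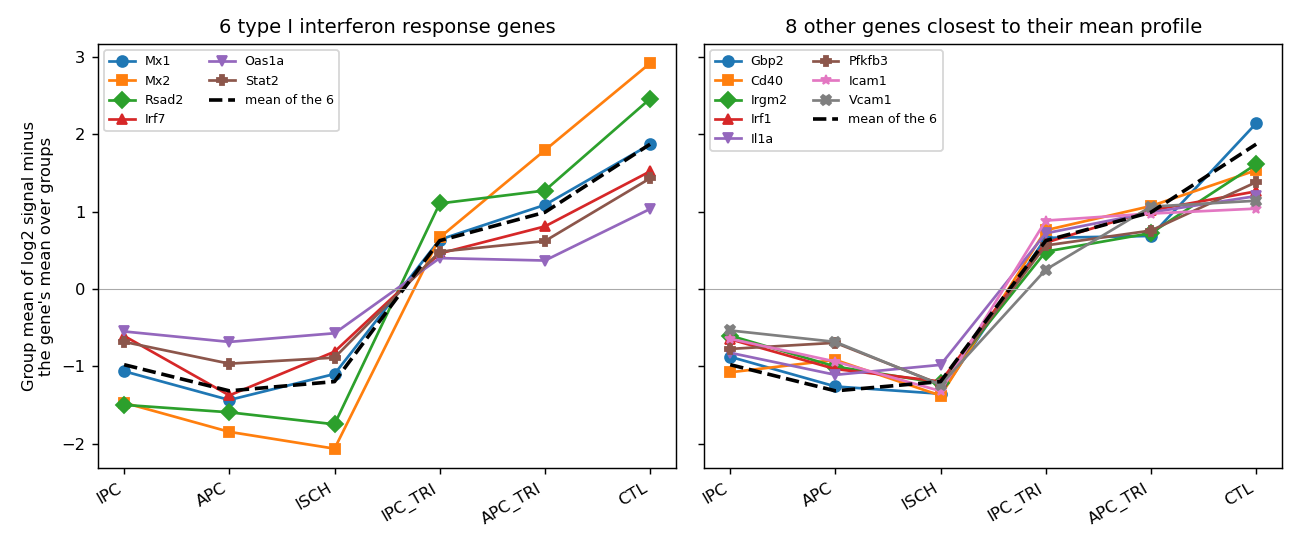
Mean log2 signal in each group minus the gene's mean over the 6 groups, for the 6 interferon response genes on the left and the 8 other genes closest to their mean profile on the right, with the mean of the 6 as a dashed line. Mx2 runs from -2.06 in ISCH to 2.92 in CTL hearts, the widest of the 6, and Oas1a from -0.68 in APC to 1.04 in CTL hearts, the narrowest.

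Among these 8 genes Cd40 averaged 85.1 ± 78.2 in IPC, 78.9 ± 37.4 in APC, 60.9 ± 29.4 in ISCH, 328 ± 176 in IPC_TRI, 395 ± 168 in APC_TRI and 520.3 ± 97.3 in CTL hearts (SD, n = 5). Icam1 averaged 4280.1 ± 2634, 3196 ± 1018, 2335 ± 695, 11799.7 ± 5088, 11880.3 ± 2751 and 11046 ± 783 in the same 6 groups. Icam1 thus had trigger means as high as the CTL mean, where the interferon response genes stood lower in the triggers.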

How the data were processed

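The arrays were 30 single-colour oligonucleotide arrays of rat left ventricle, 5 per group. The intensity values were deposited by the authors as 1 linear signal per probe set and array. The software and scaling that made them were not stated in the labels or the file header (not given in the sources used here), and the values show a trimmed mean of 501 on each array. All 30 columns were matched to samples by name, and 0 per-sample columns were left unused. Control probe sets (59) were left out.

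After adding 16, signals were put on the log2 scale and quantile normalized. A filter then dropped the dimmest 40% of probe sets by mean. All 6 groups entered 1 linear model in limma 3.58.1 (lmFit, eBayes with trend; R 4.3.3), with p-values adjusted by Benjamini-Hochberg over the 5244 kept probe sets. The fit was tested on simulated data. Levels and overlap are on the deposited signals. For other genes the probe set with the highest mean was used. Tables, sequences and figures were made with Python 3.11.15, numpy 2.4.6, pandas 2.3.3 and matplotlib 3.10.9. No batch or scan date was given, and the number of arrays limits the precision.

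The members and lists were chosen with earlier results of these data known. Of each pathway list the text names up to 4 genes with the largest difference among those called in ISCH minus CTL, up to 2 with the smallest p where none was called, genes called in a comparison without CTL, and the 8 genes of most similar profile. Ifnb1, Ifnar1, Cd14 as a marker, and the genes given against CTL in the triggers were named outside that rule after their values were seen. Gene symbols come from the platform annotation, and sequences from RefSeq (GRCr8). Alternatives were other pseudocounts, filters, normalizations and groups in the fit, array weights, the spike signal as a covariate, a replicate block and leaving out arrays.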

Additional observations from a re-analysis of the deposited data

Results flagged for a closer look

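In 3 of 48 combinations of group and probe set, 1 array stood far from the other 4, with a gap to the nearest of them that was more than 0.71 of the group's range (Dixon's 95% critical value for 5 arrays). Chance alone gives about 1 in 20 such groups. Mx2 read 210.5 on IPC 3, the highest of its group, where the other IPC arrays read 48.7 to 61.8. Mx1 read 116.5 on APC 3, the lowest of its group, where the others read 199 to 232.5. Stat2 read 68.7 on APC 1, the lowest of its group, where the others read 138 to 177.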

How the results depend on the processing

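Each result was recomputed under 41 settings, except that Mx2 failed the filter in IPC minus ISCH, APC minus ISCH and IPC minus APC when the compared groups were fitted alone. The count of called probe sets among the 8 was 8 in APC minus APC_TRI in every setting run, 5 to 7 in IPC minus IPC_TRI, and 0 in the other 5 comparisons without CTL. The median difference over the 8 kept its sign in all 5 comparisons with CTL, at -2.85 to -2.50 in ISCH, -2.64 to -2.39 in IPC and -3.20 to -2.90 in APC hearts. It was -1.47 to -0.98 in IPC_TRI and -0.999 to -0.58 in APC_TRI hearts. The calls lost were those of Irf7 and Oas1a in IPC minus IPC_TRI. Irf7 (g probe set) was at -0.76 with median centring (adjusted p = 0.101), -1.06 with the compared groups alone (0.0911), -0.93 with array weights (0.0981) and -0.77 without IPC_TRI 5 and ISCH 1 (0.117). Its call was also lost when IPC 2, IPC 4, IPC_TRI 4 or IPC_TRI 5 was left out alone, at -0.95 to -0.77 (adjusted p = 0.0612 to 0.119). Oas1a was at -0.94 with the compared groups alone (0.0753), a fit with fewer arrays.

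The values that changed sign were all uncalled and near 0. With the spike signal as a covariate, IPC minus ISCH was -0.015 for Mx1, -0.021 for the second Rsad2 probe set, -0.17 for Irf7 and -0.21 for Oas1a, and APC minus ISCH was -0.097 for Mx2 and -0.21 for the second Rsad2 probe set. On values as deposited, IPC minus ISCH was -0.021 for Mx1 and -0.0075 for Oas1a, and IPC_TRI minus APC_TRI was -0.034 for Oas1a. With array weights, Oas1a was at -0.082 in IPC minus ISCH and -0.22 in IPC_TRI minus APC_TRI, and Stat2 at 0.069 in APC minus ISCH. With median centring, Oas1a was at -0.18 in IPC_TRI minus APC_TRI. Without IPC_TRI 5 and ISCH 1, Oas1a was at -0.068 in IPC minus ISCH and -0.24 in IPC_TRI minus APC_TRI, and Stat2 at 0.0037 in APC minus ISCH.

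With single arrays left out, values ran from -0.14 to 0.15 for Mx1, and from -0.067 to 0.15 for Oas1a, in IPC minus ISCH. They ran from -0.18 to 0.20 for Stat2 in APC minus ISCH. In IPC minus APC they ran from -0.035 to 0.28 for Rsad2 (g probe set) and from -0.085 to 0.34 for its second probe set. In IPC_TRI minus APC_TRI they ran from -0.47 to 0.051 for Rsad2, from -0.24 to 0.22 for Oas1a and from -0.42 to 0.010 for Stat2. For Oas1a they ran from -0.082 to 0.37 in the difference of differences. The cause of these changes was not tested.

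The labels do not say whether the replicate numbers pair the arrays. Deviations from the group means correlated at a mean of 0.012 in 75 same-number pairs, 9 of them over 0.1. In 300 other pairs the mean was -0.0020, with 29 over 0.1. These means cannot exclude pairing. With the number as a replicate block the called members were again 7 and 8, and the count over all probe sets was 1207 in place of 1228 in IPC minus IPC_TRI, 2 in place of 9 in IPC minus ISCH and 1 in place of 5 in the difference of differences.

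Counts over all 5244 probe sets moved by over 1.5 times in some settings. They ranged from 157 to 933 around 460 in ISCH minus CTL, from 156 to 398 around 204 in IPC minus CTL and from 167 to 383 around 192 in APC minus CTL. They ranged from 227 to 1077 around 869 in IPC_TRI minus CTL and from 281 to 1065 around 453 in APC_TRI minus CTL. They ranged from 521 to 1362 around 1228 in IPC minus IPC_TRI, from 700.0 to 1518 around 928 in APC minus APC_TRI and from 0 to 93 around 23 in IPC_TRI minus APC_TRI. They ranged from 0 to 267 around 9 in IPC minus ISCH, from 0 to 203 around 14 in APC minus ISCH, from 0 to 1 around 0 in IPC minus APC and from 0 to 11 around 5 in the difference of differences. Signals near background limit what can be read for Mx2 in IPC, APC and ISCH hearts.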
